A study of Mus musculus with 12 samples.

Results

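The genes described here mark the endothelium of the liver: 8 genes of liver sinusoidal endothelial cells (Stab1, Stab2, Lyve1, Clec4g, Fcgr2b, Oit3, Gpr182 and Dnase1l3) and 2 genes of larger or continuous vessels (Vwf and Cd34). They were taken by name from the 20143 genes of the deposited table, and all 10 were found once each and passed the filter of a mean of at least 1 CPM (counts scaled to the same total in every library) over the 12 libraries, as did 15648 genes in all. The livers came from 6 Hsd17b13-KO (KO) mice and 6 wild-type (WT) mice, with 1 liver library per mouse. Mice of both genotypes were 8 to 10 weeks old when they began CDAA-HFD, a high-fat diet that lacks choline and has amino acids in place of protein, which they ate for 12 weeks, so no liver on another diet stands beside them. Hsd17b13 encodes a lipid droplet enzyme of hepatocytes. How the allele was made, and whether the mice shared litters, was not stated in the labels.

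Sinusoidal endothelial cells line the liver's capillaries, have open pores and no continuous basement membrane, and take up waste macromolecules from blood through scavenger receptors. In chronic liver injury they can lose these pores and receptors and acquire surface proteins and a basement membrane of ordinary capillaries, a change called capillarization. Cd34 and Vwf are commonly used to follow it, but Cd34 is also made by fibroblasts and blood progenitors and Vwf by megakaryocytes. The libraries are of whole liver, so fewer cells of a type and less RNA per cell cannot be told apart.

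The promoters of 3 of the genes are shown because they stand for the contrasts described below: the paralogous scavenger receptors Stab1 and Stab2, whose differences had opposite signs, and Cd34, the gene with the largest difference of the 10. None of the 3 had a limma adjusted p under 0.05, and the 95% interval of Stab1 ran from -0.34 to 0.15. Each window runs from 250 bases before to 50 bases after the RefSeq gene start (GRCm38.p6, which is mm10), read on the gene's own strand. Capitals mark AGGAAG, a core bound by ETS factors, searched on both strands (its reverse complement is printed as CTTCCT) with overlaps counted. Stab1 lies at chr14:31168592-31168891 and Stab2 at chr10:87007893-87008192, both on the minus strand, and Cd34 at chr1:194938571-194938870 on the plus strand.
Stab1: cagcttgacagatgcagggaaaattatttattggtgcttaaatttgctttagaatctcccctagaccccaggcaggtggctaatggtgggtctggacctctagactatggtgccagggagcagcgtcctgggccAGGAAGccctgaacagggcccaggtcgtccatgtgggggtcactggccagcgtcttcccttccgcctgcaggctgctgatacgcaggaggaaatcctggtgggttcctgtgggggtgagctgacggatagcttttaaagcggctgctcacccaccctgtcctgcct
Stab2: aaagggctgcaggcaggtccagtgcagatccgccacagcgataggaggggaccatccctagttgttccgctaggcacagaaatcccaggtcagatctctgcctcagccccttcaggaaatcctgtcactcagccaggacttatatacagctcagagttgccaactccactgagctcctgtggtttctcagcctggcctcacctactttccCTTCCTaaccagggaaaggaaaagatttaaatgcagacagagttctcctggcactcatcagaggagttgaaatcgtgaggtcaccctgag
Cd34: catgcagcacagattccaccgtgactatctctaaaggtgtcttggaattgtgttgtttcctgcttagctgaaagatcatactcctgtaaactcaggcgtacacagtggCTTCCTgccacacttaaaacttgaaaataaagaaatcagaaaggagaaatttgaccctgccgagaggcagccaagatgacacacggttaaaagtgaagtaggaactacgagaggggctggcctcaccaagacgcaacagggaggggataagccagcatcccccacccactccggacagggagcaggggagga
Each of these 3 windows held 1 match, at -116 in Stab1, -40 in Stab2 and -142 in Cd34 counted from the start. Clec4g held 3 matches and Fcgr2b 0, and 35.4% of all 32851 promoters in the RefSeq table held at least 1. The table matched 5 of the 10 genes. A match is a description of letters and not of binding.

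Depth was high. By the smallest step between values, 1 CPM stood for 46.3 to 77.9 counts, so the lowest value among the 10 genes came from about 259 counts of Cd34, with a counting error of 6.22%. For Vwf the largest counting error was 3.69% and for the sinusoidal genes 3.57%. Hsd17b13 itself was at 0.956 to 1.40 CPM in KO and 315 to 393 CPM in WT (log2 difference -7.32, limma adjusted p = 9.94e-17), so every library followed its genotype label. In limma, 31 of the 15648 tested genes had an adjusted p under 0.05, which is 0.198%, 16 of them higher and 15 lower in KO. The higher share of the calls was 51.6%, against 38.7% with median-of-ratios scaling and 5.44% relative to endothelial transcripts. Each difference below is that of mean log2(CPM + 1), KO minus WT. The labels tie no mice to litters or batches. The p-values set each difference against the spread between these mice and take the mice as independent, which could not be checked.

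None of the 10 genes passed the adjusted threshold. Of the 8 sinusoidal genes 7 had a higher KO mean (median log2 difference 0.19, against -0.03 over all genes tested, of which 39.2% had a positive difference), and both vessel genes had a lower KO mean (median -0.46). At an unadjusted p under 0.05, 2 of the 8 sinusoidal genes were higher, Dnase1l3 and Oit3, where 3.62% of all tested genes were. Both vessel genes were lower at that level, where 7.64% of all tested genes were. In 0 of the 10 genes did the KO and WT ranges separate completely, as they did in 1.32% of all tested genes.

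**Figure D1:**
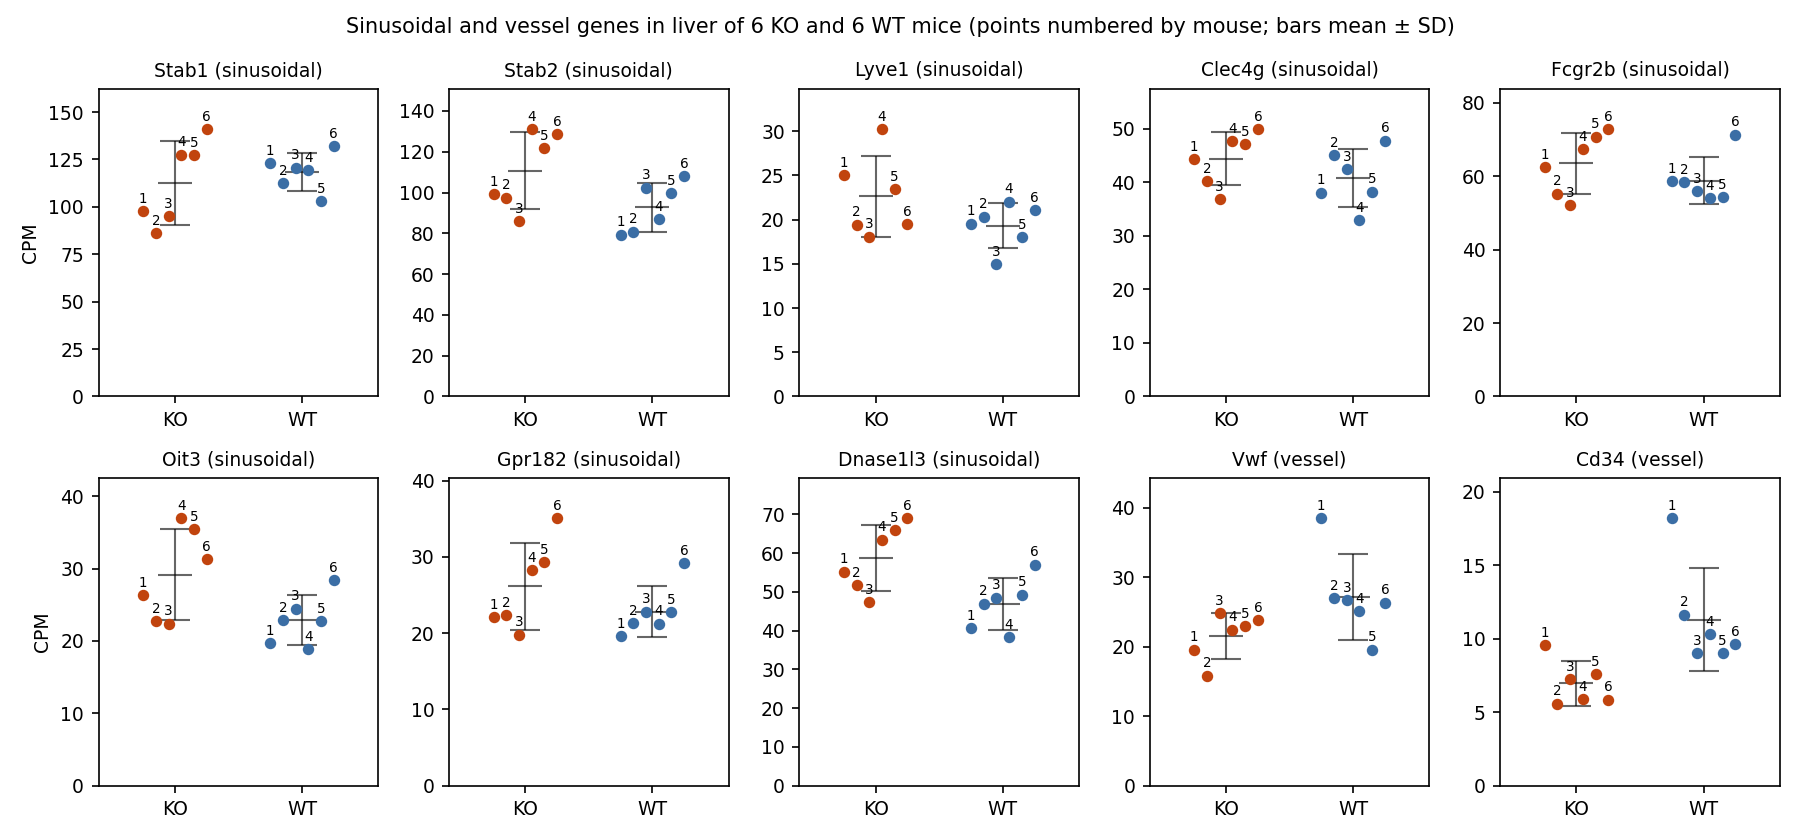
CPM (vertical axes, each from 0) of the 10 genes in every KO mouse (left) and WT mouse (right), points numbered by mouse, with mean ± SD of 6 mice as bars. Cd34 shows 5 KO mice below every WT mouse, while the sinusoidal genes overlap, with KO mice 4, 5 and 6 usually uppermost.

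Among the scavenger receptors, Stab2, the main sinusoidal clearance receptor for hyaluronan, had a lowest value of 85.8, a median of 110.5 and a highest value of 131 CPM in KO, against 79.4, 93.3 and 108 CPM in WT. KO mice 4, 5 and 6 lay above every WT mouse and KO mouse 3 below the WT median. The means were 110.7 ± 18.9 CPM in KO and 92.8 ± 12.0 CPM in WT (SD, n = 6 each), with a log2 difference of 0.24 (SE 0.11, limma unadjusted p = 0.0501, adjusted p = 0.444).

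Its paralogue Stab1, which also serves tissue macrophages, had a difference of the opposite sign, and neither gene passed. Stab1 ran over 86.0, 112.5 and 141 CPM (lowest, median and highest) in KO, and over 103, 120.1 and 132 CPM in WT. KO mice 1, 2 and 3 lay below every WT mouse and KO mouse 6 above every WT mouse. The log2 difference was -0.09 (95% interval -0.34 to 0.15, limma adjusted p = 0.858). Set per 100 CPM of Stab1 in the same mouse, Stab2 was at 99.1 ± 8.71 CPM in KO (90.1 to 113) and 78.8 ± 11.5 CPM in WT (64.5 to 96.8). This ratio, which is not corrected for gene length and was chosen after its values were seen, exceeded every WT mouse in 3 of 6 KO mice.

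Lyve1, a hyaluronan receptor of sinusoidal and lymphatic endothelium, was at 18.1, 21.5 and 30.2 CPM (lowest, median and highest) in KO and at 14.9, 19.9 and 22.0 CPM in WT (log2 difference 0.21, SE 0.12, limma adjusted p = 0.60). KO mice 1, 4 and 5 were above every WT mouse. Of the 6 other genes of the lymphatic list, 3 were near or under 1 CPM: Ccl21a averaged 0.630 CPM in KO and 1.09 CPM in WT, Mmrn1 0.968 CPM in KO and 1.16 CPM in WT, and Pdpn 0.867 CPM in KO and 1.37 CPM in WT (log2 difference -0.34, limma adjusted p = 0.507). The other 3 were well above that, with Flt4 at 54.1 CPM in KO and 49.1 CPM in WT, Prox1 at 186 CPM in KO and 184 CPM in WT, and Reln at 229 CPM in KO and 224 CPM in WT. Liver cells other than lymphatic endothelium also express these 3. The part of lymphatic vessels in the Lyve1 values was not tested.

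Among the genes of immune complex and pathogen uptake, the lectin Clec4g had 36.9, 45.7 and 49.9 CPM in KO and 32.9, 40.3 and 47.7 CPM in WT (log2 difference 0.12, SE 0.09, limma adjusted p = 0.727). Fcgr2b, the inhibitory IgG receptor through which sinusoidal cells clear small immune complexes, had 52.2, 64.9 and 72.9 CPM in KO and 54.0, 57.2 and 71.4 CPM in WT. Its log2 difference was 0.11 (95% interval -0.09 to 0.30, limma adjusted p = 0.770). KO mouse 6 was above every WT mouse in both genes, and the other KO mice were inside the WT range except for KO mouse 3 in Fcgr2b, which was below it. Among all tested genes 39.2% had a positive difference, and 3.62% were higher at an unadjusted p under 0.05. In limma 0 of the 6 Fc receptor genes passed, with 1 higher at that level. Of the 6, 4 had a positive and 2 a negative difference. The largest was in Fcgr4, an activating receptor of myeloid cells, at 13.9 ± 2.44 CPM in KO and 10.3 ± 1.53 CPM in WT (log2 difference 0.39, limma adjusted p = 0.146). The others gave 0.29 for Fcgr1, 0.08 for the neonatal receptor Fcgrt and -0.14 for Fcgr3. Fcgr2b is also made by B cells, whose 6 markers summed to 6.93 to 12.6 CPM in KO and 7.39 to 9.06 CPM in WT, with 5 positive differences and 0 genes under an unadjusted p of 0.05. The 4 with the smallest p were Cd79b (log2 difference 0.20), Pax5 (0.20), Cd79a (0.14) and Cr2 (-0.12). Their part in the result was not tested.

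Dnase1l3, a secreted nuclease that digests chromatin in circulating debris, had the smallest p of the sinusoidal genes. It was at 47.3, 59.3 and 69.0 CPM (lowest, median and highest) in KO and at 38.3, 47.7 and 57.0 CPM in WT. KO mice 4, 5 and 6 lay above every WT mouse, and 5 of 6 KO mice above the WT median. The means were 58.7 ± 8.61 CPM in KO and 46.8 ± 6.71 CPM in WT, with a log2 difference of 0.32 (95% interval 0.09 to 0.55, limma unadjusted p = 0.0101, adjusted p = 0.217). A two-sided exact permutation of genotype over the 12 mice gave p = 0.0281, where the smallest possible is 0.00216. Dendritic cells also make Dnase1l3, and their 8 markers summed to 101 to 143 CPM in KO and 78.6 to 117 CPM in WT, with 6 of 7 differences positive (median 0.08), 0 passing and 2 higher at an unadjusted p under 0.05. Among all tested genes 39.2% were positive, and 3.62% were higher at that level. Interferon-inducible Bst2 alone averaged 103 CPM in KO and 82.8 CPM in WT. The conventional dendritic marker Clec9a was at 7.52 ± 1.31 CPM in KO and 6.10 ± 0.742 CPM in WT (adjusted p = 0.385), and Itgae (-0.10) and Ccr9 (0.09) came next by p. Their part in the result was not tested.

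Oit3, which encodes a zona pellucida domain protein enriched in sinusoidal endothelium, had 22.4, 28.8 and 36.9 CPM in KO and 18.8, 22.8 and 28.4 CPM in WT. KO mice 4, 5 and 6 again lay above every WT mouse. The log2 difference was 0.33 (95% interval 0.04 to 0.61, limma unadjusted p = 0.0290, adjusted p = 0.348). Gpr182, an atypical chemokine receptor of sinusoidal endothelium, had 19.8, 25.3 and 35.1 CPM in KO and 19.6, 22.0 and 29.2 CPM in WT (log2 difference 0.17, SE 0.13, adjusted p = 0.718). Its ranges overlapped except for KO mice 5 and 6, and without KO mouse 6 the difference was 0.085.

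Of the vessel genes, Cd34, a sialomucin of continuous endothelium, differed most. It was at 5.59, 6.58 and 9.56 CPM (lowest, median and highest) in KO and at 9.01, 9.96 and 18.2 CPM in WT. KO mice 2 to 6 lay below every WT mouse, and KO mouse 1 was inside the WT range. The means were 6.96 ± 1.51 CPM in KO and 11.3 ± 3.52 CPM in WT, a ratio of 0.616, and the log2 difference was -0.61 (95% interval -0.95 to -0.26, limma unadjusted p = 0.00205, adjusted p = 0.114). The exact two-sided permutation p was 0.00649. WT mouse 1 stood far above the other WT mice. Without it the difference was -0.47 (limma unadjusted p = 0.0019, adjusted p = 0.139).

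Vwf, the large glycoprotein that tethers platelets to injured vessels, was at 15.8, 22.7 and 24.9 CPM in KO and at 19.6, 26.5 and 38.5 CPM in WT. All 6 KO mice were below the WT median, and 1 was below every WT mouse. The log2 difference was -0.31 (95% interval -0.60 to -0.01, limma unadjusted p = 0.0418, adjusted p = 0.411). It rested in part on WT mouse 1, without which it was -0.21 (limma unadjusted p = 0.0988). Platelets and megakaryocytes also hold Vwf transcripts, and their markers summed to 13.2 to 21.4 CPM in KO and 9.70 to 15.5 CPM in WT. The 3 tested, Itgb3 (log2 difference 0.38), Itga2b (0.14) and Pf4 (0.01), had limma adjusted p of 0.411 to 0.990, with Itgb3 higher at an unadjusted p of 0.0419. Their part in the Vwf values was not tested. Ppbp lay under the filter at 1.00 CPM in KO and 0.534 CPM in WT.

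**Figure D2:**
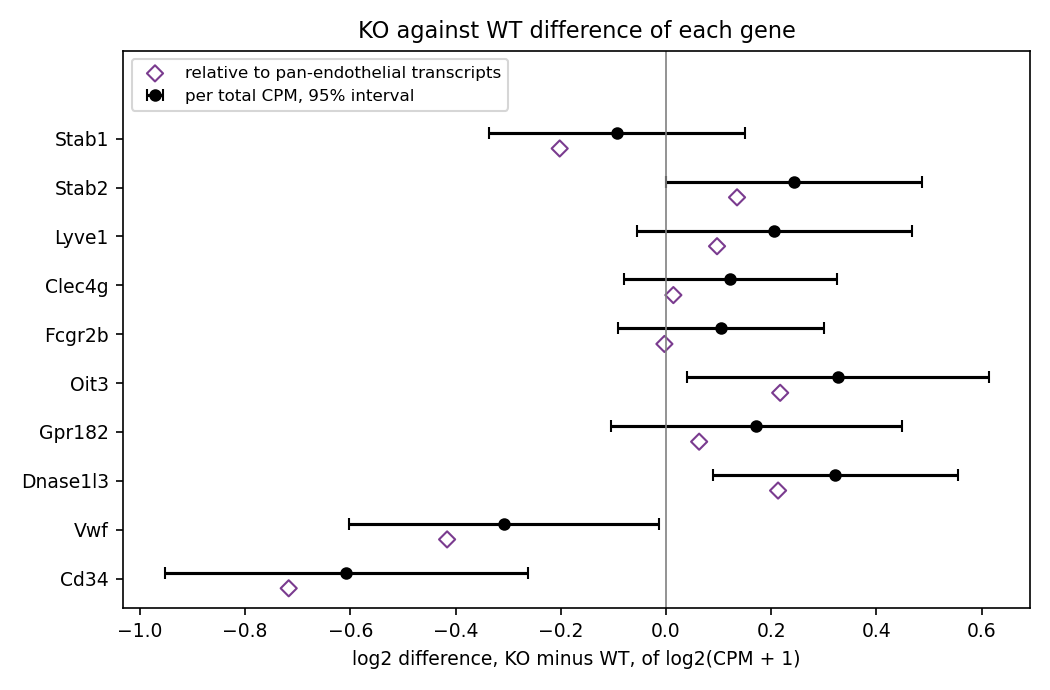
Log2 difference, KO minus WT (horizontal axis), of each of the 10 genes with its 95% interval from limma (filled circles), and the same difference after each library was shifted by its pan-endothelial level (open diamonds). The intervals of Dnase1l3, Oit3, Vwf and Cd34 leave out 0. The diamonds lie to the left of the circles by construction, since the shift of a library is the same for all genes.

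The general endothelial level was set beside these genes. Pan-endothelial genes such as Pecam1 and the junctional cadherin Cdh5 were well measured, at 28.0 and 45.3 CPM in KO and 25.9 and 39.3 CPM in WT. Of the 26 on the list 23 had positive differences (median 0.11), where 39.2% of all tested genes did. Of these 26, 0 passed and 3 were higher at an unadjusted p under 0.05, where 3.62% of all tested genes were. The 4 with the smallest p were the VEGF receptor Kdr (log2 difference 0.24), Adgrf5 (0.24), Clec14a (0.22) and the guidance receptor Robo4 (0.22), with limma adjusted p of 0.326 to 0.446. Their mean log2 level was 4.22 ± 0.189 in KO and 4.11 ± 0.111 in WT, again with KO mice 4, 5 and 6 above every WT mouse. Shifting each library by this level moves the differences of all genes by the same amount, by construction. The median of all tested genes moved by -0.11, to -0.14. Relative to the pan-endothelial level the sinusoidal median was 0.08 and the vessel median -0.57. On this scale Cd34 was lower in KO (log2 difference -0.72, limma adjusted p = 0.0262), where 2.56% of all tested genes were called lower and 2.7% in either direction, and the other 9 genes did not pass. Fcgr2b and Clec4g were then at -0.003 and 0.01, and Stab1 at -0.20 (limma unadjusted p = 0.0424, adjusted p = 0.292). On this scale 2546 of the 15648 tested genes had an unadjusted p under 0.05.

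Within each mouse, Cd34 per 100 CPM of Stab2 was 6.52 ± 2.10 CPM in KO (4.50 to 9.63) and 12.7 ± 5.49 CPM in WT (8.81 to 22.9), and every WT mouse exceeded 5 of the 6 KO mice. Vwf per 100 CPM of Stab2 was 19.9 ± 4.62 CPM in KO (16.2 to 29.0) and 30.2 ± 10.1 CPM in WT (19.7 to 48.5), and every WT mouse exceeded 4 of the 6 KO mice. These ratios are not corrected for gene length and are given without a test, since they are built from genes chosen with earlier results known.

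**Figure D3:**
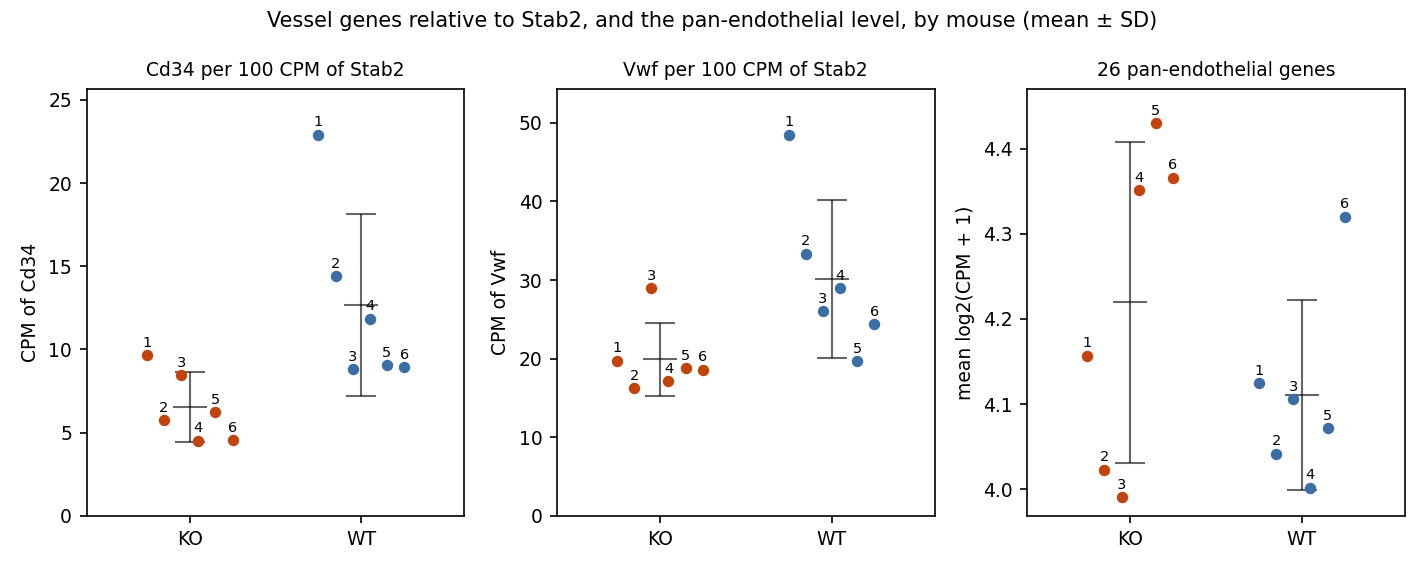
Cd34 and Vwf in CPM per 100 CPM of Stab2 (left and middle, axes from 0) and the mean log2(CPM + 1) of the 26 pan-endothelial genes (right, axis not from 0) in each KO and WT mouse, with mean ± SD of 6 mice. WT mouse 1 is uppermost in both ratios, and KO mice 4, 5 and 6 are uppermost in the pan-endothelial level.

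Levels per length gave the order of the genes. Divided by the combined exon length of each gene in GENCODE, Clec4g was the most abundant of the 10, at 18.0 ± 2.01 CPM per kb in KO and 16.5 ± 2.195 CPM per kb in WT. In KO there followed Stab2 at 12.6, Dnase1l3 at 11.4, Fcgr2b at 10.97, Stab1 at 10.9 and Oit3 at 10.5 CPM per kb, neighbours whose means lay within 1 SD of each other. In WT the order was Stab1 at 11.5, Stab2 at 10.6, Fcgr2b at 10.2, Dnase1l3 at 9.08 and Oit3 at 8.19 CPM per kb, with neighbouring means again within 1 SD. Lyve1 (7.75 CPM per kb in KO and 6.62 in WT) and Gpr182 (6.61 in KO and 5.77 in WT) came below, and these 2 also overlapped. Vwf and Cd34 were lowest, at 1.34 and 0.954 CPM per kb in KO and at 1.69 and 1.55 in WT. Combined exon length includes rare isoforms and can understate a level.

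Of the 7 sinusoidal genes set against Stab2, 3 followed it between mice by both r and rho. With each group's mean removed, log2 levels of Gpr182 (r = 0.90, rho = 0.89), Oit3 (r = 0.88, rho = 0.86) and Dnase1l3 (r = 0.87, rho = 0.85) followed Stab2 over the 12 mice, with permutation p adjusted over 9 relations of 0.00333 to 0.00609 for r and 0.00705 for rho. Fcgr2b (r = 0.73, adjusted permutation p = 0.0393) and Clec4g (r = 0.67, 0.0432) passed by r but not by rho (0.059 and 0.0512), and Stab1 (r = 0.70, 0.0602) passed by neither. Lyve1 (r = 0.23), Vwf (r = -0.13) and Cd34 (r = -0.55) did not follow Stab2, with adjusted permutation p of 0.588, 0.680 and 0.0836. Without KO mice 3 and 4, the mice farthest from the median of Stab2, r was 0.81 to 0.89 for Oit3, Gpr182 and Dnase1l3. Stab2 levels in KO formed a lower set (mice 1, 2 and 3) and a higher set (mice 4, 5 and 6), so the r within KO (0.93 to 0.96 for these 3 genes) rests on that gap, while in WT r was 0.76 to 0.83 over 6 mice.

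By the sum of the 8 sinusoidal genes, KO mice 4, 5 and 6 reached 533, 521 and 547 CPM and KO mice 1, 2 and 3 reached 433, 395 and 378 CPM, against 394 to 495 CPM in WT. KO mouse 6 exceeded every WT mouse in 7 of the 8 genes, KO mouse 5 in 5, KO mouse 4 in 4, KO mouse 1 in 1 and KO mice 2 and 3 in 0. WT mouse 6, the highest of the WT mice, was above the WT mean in all 8.

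**Figure D4:**
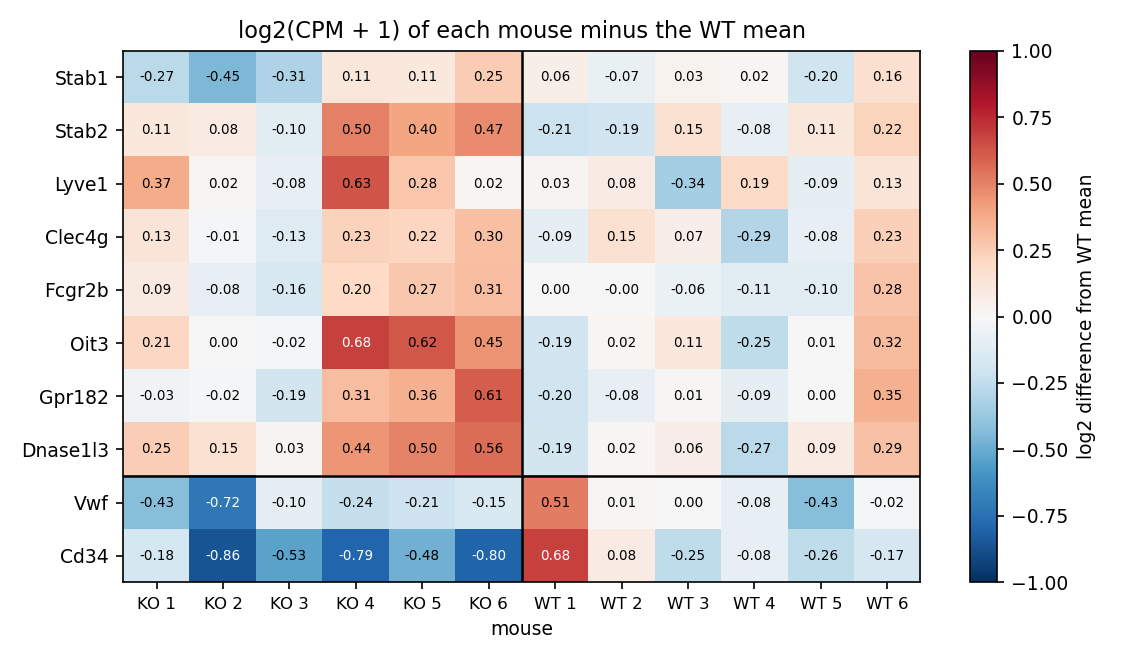
Log2(CPM + 1) of each gene (rows) in each mouse (columns, KO left and WT right) minus the WT mean of that gene, printed in each cell and coloured from blue (below) to red (above). KO mice 4, 5 and 6 are above the WT mean in every sinusoidal gene, and Cd34 is below it in all 6 KO mice.

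The genes with a standard symbol whose mouse-to-mouse pattern was most like that of Stab2, by r over 12 mice with group means removed, were Dll4 (0.96), Pdxdc1 (0.94), Cdh5 (0.93), Robo4 (0.93) and Kdr (0.90). Among 15636 genes ranked, Gpr182 stood at place 7, Oit3 at 18 and Dnase1l3 at 20, while Vwf and Cd34 stood at places 10819 and 14861. For Vwf the most alike were the pseudogene Rpl27-ps3 (0.94), Capg (0.92), Cacnb1 (0.92), Igfbp7 (0.91) and Zfp827 (0.90), and Cd34 stood at place 1466 (r = 0.61). These are the extremes of many r values and are given as a description. Those of Vwf were not taken again without WT mouse 1, its highest mouse at 38.5 CPM.

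Of 18 other genes of sinusoidal identity measured, 13 had positive differences (median 0.10), where 39.2% of all tested genes did. Of these 18, 0 passed and 2 were higher at an unadjusted p under 0.05, where 3.62% of all tested genes were. Coagulation factor F8 was at 53.4 ± 10.4 CPM in KO and 40.8 ± 7.43 CPM in WT (log2 difference 0.38, limma adjusted p = 0.289), and the mannose receptor Mrc1 at 87.0 ± 14.9 and 70.8 ± 9.23 CPM (0.28, 0.315). Next by p were Fam167b (0.24) and Adam23 (0.21). The transcription factors Gata4 (-0.04) and Maf (0.08), which specify sinusoidal identity, had adjusted p of 0.927 and 0.753.

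Angiocrine signals pass from sinusoidal cells to hepatocytes. A list of endothelial genes of such signals, which also holds genes of other function, gave 4 positive and 7 negative differences among 11 tested (median -0.09). Of these 11, 0 passed and 2 were lower at an unadjusted p under 0.05. Which liver cells made their transcripts was not tested. The 4 with the smallest p were the secreted Dkk3 (11.4 ± 1.30 CPM in KO and 16.4 ± 3.97 CPM in WT, log2 difference -0.47, limma adjusted p = 0.111), the arterial ligand Efnb2 (-0.21), Bmp2 (0.14) and Bmp6 (-0.15). Of the genes of continuous and large vessels, 6 of 20 had positive and 14 negative differences (median -0.06) and 0 passed, with 1 higher and 6 lower at an unadjusted p under 0.05. Over all tested genes 39.2% were positive (median -0.03), with 3.62% higher and 7.64% lower at that level. The 4 with the smallest p were Mgp (-0.58), Bgn (-0.32), Fbln2 (-0.50) and caveolin Cav1 (-0.71), with adjusted p of 0.135 to 0.175, and matrix-producing cells also express these. Plvap, a diaphragm protein that marks fenestrated and capillarized endothelium, was at 84.4 ± 12.0 CPM in KO and 74.3 ± 8.93 CPM in WT (0.18, adjusted p = 0.56), and Ly6a, which interferon also induces, at 46.4 ± 19.9 and 29.9 ± 7.82 CPM (0.55, adjusted p = 0.442), so neither had the sign of Cd34.

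Basement membrane genes, whose products are deposited in the sinusoid during capillarization, had negative differences in 11 of 12 (median -0.21). Over all tested genes 39.2% had a positive difference. Of the 12, 0 passed and 6 were lower at an unadjusted p under 0.05, where 7.64% of all tested genes were. The laminin chains Lama5 (12.8 ± 2.69 CPM in KO and 24.3 ± 7.56 CPM in WT, log2 difference -0.85, limma adjusted p = 0.0821) and Lamb2 (12.8 ± 1.90 and 20.2 ± 5.36 CPM, -0.60, 0.0895) had the smallest p. Col15a1 (-0.55) and Col4a2 (-0.31) followed. These values are of whole liver and not of the sinusoid alone, and the part of other cells in them was not tested.

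**Figure D5:**
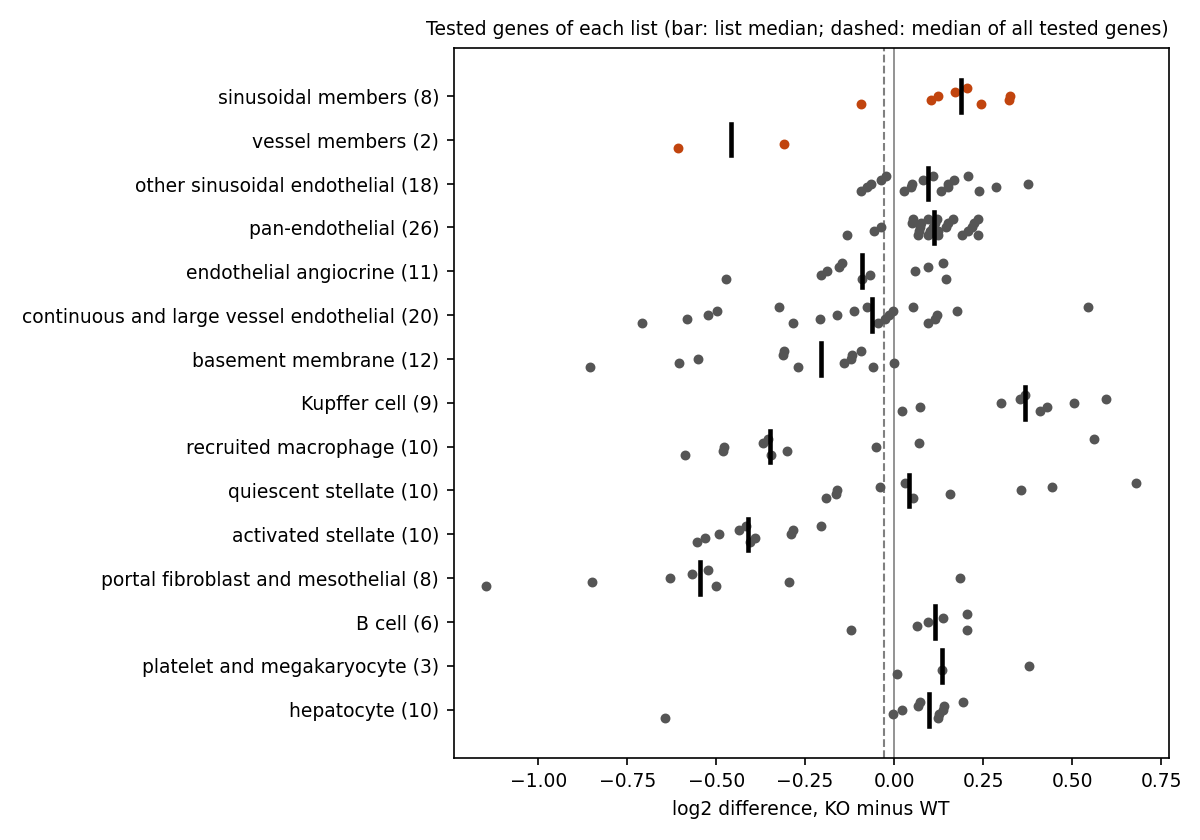
Log2 difference, KO minus WT (horizontal axis), of every tested gene (points) of 15 lists (rows, number tested in brackets), with the list median as a bar and the median of all tested genes as a dashed line. Sinusoidal, pan-endothelial and Kupffer cell genes lie mostly to the right, and vessel, basement membrane, activated stellate and portal fibroblast genes mostly to the left. Of all tested genes 39.2% had a positive difference.

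Signalling pathways with roles in sinusoidal endothelium had 0 genes passing in any of 4 lists. The libraries are of whole liver, so the cells behind these values cannot be told apart. At an unadjusted p under 0.05, 1 gene was lower in the BMP9 and ALK1 list, 0 genes in the shear list, 2 lower in the Notch list, and 1 higher and 1 lower in the VEGF list. For comparison, 39.2% of all tested genes had a positive difference (median -0.03), with 3.62% higher and 7.64% lower at that level. In the BMP9 and ALK1 list 3 of 12 differences were positive (median -0.08), led by the target Id1 (-0.48, limma adjusted p = 0.271), Smad5 (-0.12), Smad6 (-0.21) and Id2 (-0.17). In the shear and KLF2 list 2 of 8 were positive (median -0.14), led by the channel Piezo1 (-0.21), Klf4 (-0.28), Mef2c (-0.20) and Thbd (-0.14). In the Notch list 3 of 10 were positive (median -0.07), led by the ligand Jag1 (-0.53, adjusted p = 0.146), Heyl (-0.25), Rbpj (-0.11) and Nrarp (-0.16). In the VEGF list 3 of 8 were positive (median -0.02), with Kdr at 0.24, Vegfc at -0.18, Flt4 at 0.13 and Nrp2 at -0.09.

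Markers of other liver cells are given beside these results. Over all tested genes 39.2% had a positive difference, with 3.62% higher and 7.64% lower at an unadjusted p under 0.05. Kupffer cell markers, which matter for Stab1, Mrc1 and Fcgr2b, summed to 779 to 945 CPM in KO and 550.0 to 724 CPM in WT, with 9 of 9 differences positive (median 0.37), 0 passing and 6 higher at an unadjusted p under 0.05. The 4 with the smallest p were Cd5l (0.51), Clec1b (0.37), Slc40a1 (0.30) and Clec4f (0.60). Recruited macrophage markers summed to 939 to 1403 CPM in KO and 1350 to 2319 CPM in WT, with 8 of 10 negative (median -0.35, led by Lyz2, Itgam, Gpnmb and Cx3cr1), 0 passing, and 1 higher and 6 lower at an unadjusted p under 0.05. Hepatocyte genes overlapped (71140 to 88140 CPM in KO and 70940 to 91900 CPM in WT, 8 of 10 positive, median 0.10), as did the lymphatic list (4 of 6 positive, median 0.02), and 0 passed in either, with 1 hepatocyte gene (G6pc, -0.65, ahead of Cyp2e1 at 0.19, Hnf4a at 0.12 and Serpina1c at 0.14) and 0 lymphatic genes under an unadjusted p of 0.05.

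Beside Cd34, markers of portal fibroblasts and mesothelium summed to 70.6 to 101 CPM in KO and 103 to 203 CPM in WT, with 7 of 8 differences negative (median -0.55). Dermatopontin (Dpt), a matrix protein of fibroblasts, fell to 13.6 ± 1.142 CPM in KO, against 26.2 ± 9.18 CPM in WT (log2 difference -0.85, limma adjusted p = 0.0473), and was the only one of the list to pass. The list had 0 passing genes when any 1 mouse other than WT mouse 1 or WT mouse 5 was left out. Krt19 (-1.15, adjusted p = 0.0575), Gpx3 (-0.57) and Gsn (-0.50) followed. None of these genes is made only by portal fibroblasts and mesothelium, and Krt19 also marks bile duct cells. The part of bile duct cells in the Krt19 values was not tested. For the counts of this paragraph, 39.2% of all tested genes had a positive difference. At an unadjusted p under 0.05, 3.62% of them were higher and 7.64% lower. Activated stellate markers summed to 638 to 830 CPM in KO and 810 to 1418 CPM in WT, with 10 of 10 negative (median -0.41, led by Pdgfrb, Timp1, Lox and Pdgfra), 0 passing and 9 lower at an unadjusted p under 0.05. Relative to pan-endothelial transcripts 4 of 8 portal fibroblast, 6 of 10 activated stellate and 3 of 12 basement membrane genes passed. On that scale 2.7% of all tested genes passed, with 2.56% lower, and the median of all tested genes was -0.135. Quiescent stellate markers gave 6 of 10 positive differences (median 0.04), with 0 passing. At an unadjusted p under 0.05, Colec10 (0.68), Lrat (0.44) and Ecm1 (0.36) were higher in KO and Des (-0.19) was lower. WT mouse 1, the highest mouse for Cd34 and Vwf, was also the highest for the fibroblast, activated stellate and recruited macrophage sums. The part of these cells in the Cd34 and Vwf values was not tested.

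None of the 10 genes lies on chromosome 5, which carries Hsd17b13. Cd34 (ENSMUSG00000016494) spans 194938819 to 194961279 on chromosome 1, Vwf (ENSMUSG00000001930) 125546774 to 125686679 on chromosome 6, Dnase1l3 (ENSMUSG00000025279) 7964533 to 7994573 on chromosome 14, Oit3 (ENSMUSG00000009654) 59422958 to 59441778 on chromosome 10 and Stab2 (ENSMUSG00000035459) 86841198 to 87008025 on chromosome 10, all protein coding (mm10). Annotated genes on the opposite strand overlap Stab1, Stab2, Clec4g, Fcgr2b, Gpr182 and Cd34, and the labels do not say whether reads were assigned by strand. The largest of these partners in the table is Zbtb39, which overlaps Gpr182 and averaged 25.8 CPM, a level close to that of Gpr182. Reads of the overlapping stretches could not be assigned here, so the values of these 6 genes are uncertain to that extent.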

How the data were processed

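Liver RNA of 6 KO and 6 WT mice was sequenced, 1 library per mouse, from libraries made after globin and rRNA depletion with a directional kit, per the labels' protocols; the molecule label says polyA RNA. The submitters' processing notes name mm10, Partek 10.0, STAR 2.7.3a and DESeq2 1.14.1 without roles. The authors deposited CPM values: every column sums to 1000000. Each library has 1 smallest step, and 71.1% to 75.1% of its values under 1 CPM were whole multiples of it to within 0.02 steps (4% if evenly spread). The others were not whole, so read counts could not be restored and count models were not used. Libraries of 1 genotype differed by more than sampling noise (median chi-square of a gene 3.29 to 11.3, against 0.455).

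Symbols, positions and exon lengths came from GENCODE (20055 IDs matched). Genes averaging 1 CPM or more were fitted as log2(CPM + 1) in limma 3.58.1 (R 4.3.3; mean trend, two-sided, Benjamini-Hochberg over all genes, threshold 0.05), tested on simulated data. Differences of low genes are understated on this scale. Permutation tests were two-sided, with 100000 resamples within groups for relations (SciPy 1.17.1, Python 3.11.15).

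The members and the 22 lists were chosen with earlier results of these data known. The genes named are the 10 members, the 4 of each list with the smallest p, and for Stab2 and Vwf the 5 genes most alike; Gata4, Maf, Plvap, Ly6a, Pecam1, Ccl21a, Prox1, Reln and Ppbp were named beside them after their values were seen. The alternatives were listed as planned, but whether they were set before earlier results of these data were known was not recorded. No reason was recorded for the choice of the KO mice that were left out together.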

Additional observations from a re-analysis of the deposited data

Results flagged for a closer look

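Among the 20 sets of 6 values (10 genes in 2 genotypes), 3 had a mouse far from the others, its gap to the nearest value taking more of the range than Dixon's 95% limit for 6 samples allows. About 1 in 20 sets is picked by chance. Cd34 in WT was highest in mouse 1 at 18.2 CPM, with a gap of 0.713 of the range. Fcgr2b in WT was highest in mouse 6 at 71.4 CPM (0.732), and Gpr182 in WT was highest in mouse 6 at 29.2 CPM (0.669). The Vwf value of WT mouse 1 came close, with a gap of 0.61.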

How the results depend on the processing

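Over 23 alternatives the signs of the 10 genes held except for Fcgr2b relative to pan-endothelial transcripts (-0.003) and Stab1 without KO mice 1 and 3 (0.004). The count of the 10 genes that passed was 0 in every alternative but that relative to pan-endothelial transcripts, where it was 1 (Cd34). At a mean of at least 10 CPM Cd34 was not tested. Dnase1l3 had an unadjusted p under 0.05 in 23 of 23 alternatives, Oit3 in 18, Vwf in 14 and Cd34 in 22 of 22. Leaving out each mouse in turn, the sinusoidal median ran over 0.13 to 0.25 and the vessel median over -0.53 to -0.34, the passing members stayed at 0, and adjusted p ran over 0.0853 to 0.262 for Cd34 and 0.12 to 0.464 for Dnase1l3. Single mice moved some differences that did not pass by over 1.5 times. Gpr182 was 0.085 without KO mouse 6, Lyve1 0.12 without KO mouse 4 and Clec4g 0.064 without WT mouse 4. Fcgr2b was 0.064 without KO mouse 6, 0.159 without KO mouse 3 and 0.162 without WT mouse 6. Stab1 was -0.058, -0.021, -0.05 and -0.163 without KO mouse 1, 2, 3 or 6, and -0.061 without WT mouse 6.

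The count of all genes passing, 31 as reported, was 14 at a mean of at least 10 CPM, 62 with median-of-ratios scaling, 76 with quantile normalization, 423 relative to pan-endothelial transcripts, 212 with library weights and 192 without KO mice 1 and 3. It ran over 15 to 50 when each mouse was left out in turn, lowest without WT mouse 3 and highest without KO mouse 3. The causes were not tested. The labels do not say whether mouse numbers pair the animals, and 6 correlations are too few to decide it. Same-numbered KO and WT mice correlated from -0.51 to 0.42, and 2 of 6 correlated best with their own number. With the number as a replicate block 43 genes passed, 0 of the 10 among them. In that fit the SE of Cd34 was 0.109 (limma adjusted p = 0.0645), against 0.161 in the main fit. The SE fell for Gpr182 (0.129 to 0.082) and Lyve1 (0.122 to 0.087) and rose for Vwf (0.137 to 0.142) and Clec4g (0.094 to 0.096). Depth does not limit the 10 genes, whose counting errors are far below the spread between mice.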

Other observations

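Cd34 was not an anchor of the comparison of mouse-to-mouse patterns and was added after its values were seen. With group means removed, the genes most like it over 12 mice were Serpine2 (r = 0.95), a protease inhibitor, the mesenchymal transcription factor Prrx1 (0.94), Zfp354c (0.94), Rpl36a (0.94) and the collectin Sftpd (0.93). These r values can rest largely on WT mouse 1, whose Cd34 value of 18.2 CPM lay far above the other WT mice. They were not taken again without it. Serpine2 was at 6.03 ± 1.61 CPM in KO and 12.7 ± 4.77 CPM in WT (log2 difference -0.94, limma adjusted p = 0.069), and Prrx1 at 2.43 ± 0.746 CPM in KO and 4.20 ± 1.22 CPM in WT (-0.60, adjusted p = 0.114). Of the 10 endothelial genes Vwf came nearest to Cd34 (r = 0.61), at place 1974 of 15636, and Stab2 stood at place 14796.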
